A study of Arabidopsis thaliana with 96 samples.

Results

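Flowers of class sMf from suvh1-2 plants carrying the ARE//AGE cassette were examined for small RNA matching the enhancer and the promoter of the gene AGAMOUS. The group was taken by its title from the set of libraries marked C, and holds 3 of the 96 libraries of the series. It was set against the host suvh1-2 with Wt flowers, and against hdp1-1_ARE//AGE and hdp2-1_ARE//AGe flowers of the same class sMf, with 3 libraries each. These 4 groups make up 12 of the 36 libraries and 4 of the 12 groups of set C. The other groups of set C entered the edgeR fits over the set and so the estimate of spread. They include Wt flowers of Col, kan1-11, hdp1-1 and hdp2-1. The rest are rMf flowers of hdp1-1_ARE//AGE, hdp2-1_ARE//AGe, Col_Ctr//AGe and kan1-11_Ctr//AGe. Each Wt group served as the host of the lines of its genotype. All were young flowers of Arabidopsis thaliana. Each library was made from RNA of flowers pooled over 5 to 10 lines that looked alike, so a value describes a pool and not 1 insertion, and different pools may hold different insertions. Wt flowers of suvh1-2 are taken here as untransformed, since their genotype label names no cassette. The other Wt groups of set C are taken likewise, since their titles name no cassette. The labels spell the cassette AGE in suvh1-2 and hdp1-1 and AGe in hdp2-1, and do not spell out ARE or sMf. That both spellings name the same cassette is an assumption made here. No rMf flowers of suvh1-2, and no suvh1-2 flowers with another cassette, are among the libraries used here, so in suvh1-2 an effect of the cassette and one of the flower class cannot be told apart. The table holds 2 regions and no marker genes, so neither the tissue nor the mutant allele could be checked against expression.

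AGAMOUS (AG, AT4G18960) encodes the MADS-box factor that specifies stamens and carpels, and its large second intron carries the enhancer through which LEAFY and WUSCHEL switch it on in the flower. In RNA-directed DNA methylation, a plant silencing pathway, short RNAs lead methyltransferases to DNA of the same sequence, where cytosines of CG, CHG and CHH contexts are methylated, and a promoter so marked can lose its activity. SUVH1 is a SET-domain protein that binds methylated DNA and promotes transcription of genes near it. HDP1 and HDP2 derive from a domesticated transposon and belong to a complex with the histone acetyltransferase IDM1 that acts with DNA demethylation against silencing.

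The counted regions are named AGe (AG enhancer) and AGp (AG promoter or M2) in the file. M2 is not spelled out, nor is it said for which libraries it stands. That the set C counts are of the AG promoter is an assumption made here. AGe lies at positions 10384147 to 10387145 of chromosome 4 (2999 bp), which are exactly intron 2 in 1 of the 4 annotated AG transcripts, while the other transcripts place a small exon near its end. AGp lies at 10380701 to 10382800 (2100 bp), outside the gene, and ends 56 bp before its annotated start. Both regions are poor in G and C (28.6% GC each). AGe holds 856 cytosines on both strands, of which 84.5% are in CHH, 8.53% in CHG and 7.01% in CG context, and AGp holds 599, of which 86.6%, 8.68% and 4.67% are in these contexts. Every 24-base word of either region occurs once in the reference, as do 99.6% and 99.7% of the 21-base words of AGe and AGp. Which of these sequences the cassette holds was not checked. Where it holds them, a read from the cassette and one from the AG gene itself match the same positions, so their sources cannot be told apart. In these pooled flowers more cells making such RNA and more RNA per cell cannot be told apart either.

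A stretch of each region is printed from the RefSeq copy of the TAIR10.1 genome, plus strand, to show the DNA that the reads match. The AGe stretch is chr4:10386518-10386817, 300 bases centred on the match to the WUSCHEL motif TTAATGG. Capitals mark matches, on either strand, to that motif and to the LEAFY motif CCANTG. The AGp stretch is chr4:10382501-10382800, the 300 bases of AGp nearest to the AG start, with its CG dinucleotide in capitals.
AGe: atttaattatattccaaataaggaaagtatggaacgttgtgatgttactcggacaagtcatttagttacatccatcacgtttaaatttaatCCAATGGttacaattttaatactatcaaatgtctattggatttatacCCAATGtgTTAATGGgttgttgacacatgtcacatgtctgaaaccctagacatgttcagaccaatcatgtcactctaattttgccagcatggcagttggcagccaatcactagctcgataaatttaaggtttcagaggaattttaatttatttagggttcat
AGp: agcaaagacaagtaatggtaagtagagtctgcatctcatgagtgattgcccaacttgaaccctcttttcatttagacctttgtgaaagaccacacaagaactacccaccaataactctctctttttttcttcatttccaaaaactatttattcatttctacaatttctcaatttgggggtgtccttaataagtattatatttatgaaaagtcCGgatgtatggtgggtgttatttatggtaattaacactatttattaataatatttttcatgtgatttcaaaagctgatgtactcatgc
The AGe stretch held 3 matches to CCANTG, of which a pair on opposite strands overlap, and 1 match to TTAATGG that overlaps none of them. The whole of AGe held 6 and 1, and the whole of AGp 1 and 1. Of windows of 300 bases tiled over the nuclear chromosomes 32.1% held CCANTG, 5.05% held TTAATGG and 0.116% held at least 3 of the one and 1 of the other. Since the AGe stretch was centred on TTAATGG, its holding that motif was set beforehand, and these shares do not say how rare it is. Of the 20057 windows that held TTAATGG, 462 also held at least 3 matches to CCANTG. In windows of 2999 bases these motifs were held by 96.2% and 40.6%, and in windows of 2100 bases by 91.1% and 30.6%. A match is a run of letters and no evidence of binding.

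Mapped reads were close in number between groups, while reads aligned once, the other library size used, were not. Mapped reads, in units of 1000000, ran from 22.8 to 23.6 in the suvh1-2_ARE//AGE sMf libraries, against 23.5 to 23.9 in suvh1-2 Wt, 22.6 to 23.4 in hdp1-1_ARE//AGE sMf and 22.7 to 23.2 in hdp2-1_ARE//AGe sMf. In the same units reads aligned once averaged 10.01 in suvh1-2_ARE//AGE sMf, against 11.7 in suvh1-2 Wt, 8.41 in hdp1-1_ARE//AGE sMf and 9.49 in hdp2-1_ARE//AGe sMf. The level that a count of 0 would allow (3 reads) was at most 0.133 reads per 1000000 mapped reads (RPM) in these libraries, far below every value reported here.

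Enhancer and promoter reads both rose in suvh1-2 flowers with the cassette, each to over 10 times the host's level. All 14 tests of lines against their hosts in set C passed (100%), so passing is not particular to suvh1-2. The 3 suvh1-2_ARE//AGE sMf libraries held 55381, 80437 and 74134 AGe reads, against 4972, 4981 and 5071 in suvh1-2 Wt. Per mapped read these are 2399, 3413 and 3254 RPM with the cassette, against 211.2, 208.1 and 215.8 RPM in the host. Every library with the cassette lay above every host library, and replicate 1 was the lowest of the 3. The means were 3022 ± 546 RPM in suvh1-2_ARE//AGE sMf and 211.7 ± 3.86 RPM in suvh1-2 Wt (SD, n = 3 each). The fitted ratio was 14.3 (log2 3.84 ± 0.42 SE, 95% interval of the ratio 7.96 to 25.6, adjusted p = 5.45e-12 by edgeR).

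AGp also rose. The counts were 32801, 47684 and 46092 with the cassette, against 3474, 3116 and 3370 in the host. These are 1421, 2023 and 2023 RPM in suvh1-2_ARE//AGE sMf, against 147.6, 130.2 and 143.4 RPM in suvh1-2 Wt. Again the groups did not overlap and replicate 1 was lowest with the cassette. The means were 1822 ± 348 RPM in suvh1-2_ARE//AGE sMf and 140.4 ± 9.08 RPM in the host, and the fitted ratio was 13.0 (log2 3.70 ± 0.42 SE, interval of the ratio 7.26 to 23.2, adjusted p = 1.26e-11 by edgeR).

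Per kilobase, the scale on which the regions can be compared with each other, AGe stood at 1008 ± 182 and AGp at 867.7 ± 166 RPM per kb with the cassette. In the host the densities were 70.6 ± 1.29 RPM per kb for AGe and 66.9 ± 4.32 for AGp. Together the regions took 0.484% ± 0.0891 of mapped reads in suvh1-2_ARE//AGE sMf, against 0.0352% ± 0.0012 in suvh1-2 Wt.

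**Figure D1:**
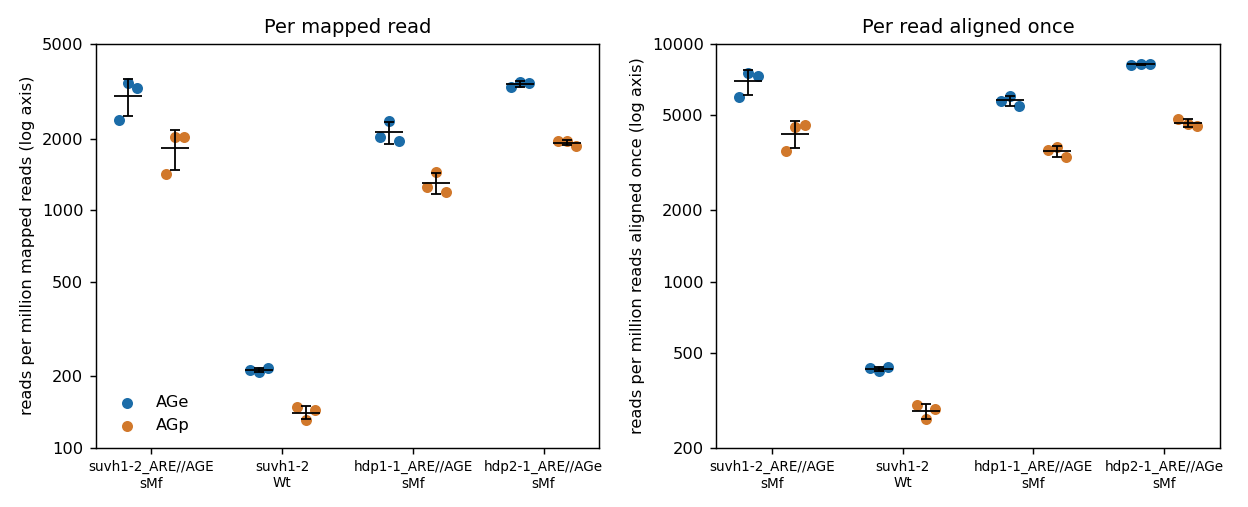
AGe (blue) and AGp (orange) reads per 1000000 mapped reads (left) and per 1000000 reads aligned once (right), on log axes, in the 3 libraries of each group. Points are libraries, the horizontal mark is the mean and the bar 1 SD. The suvh1-2_ARE//AGE sMf libraries lie between 2399 and 3413 for AGe on the left, above 215.8, the highest suvh1-2 Wt library.

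The spread among suvh1-2_ARE//AGE sMf pools was wider than in the groups compared with it, but not the widest in set C. The coefficient of variation of AGe per mapped read was 18.1% in suvh1-2_ARE//AGE sMf, against 1.82% in suvh1-2 Wt, 10.5% in hdp1-1_ARE//AGE sMf and 2.72% in hdp2-1_ARE//AGe sMf. For AGp it was 19.1%, against 6.47% in suvh1-2 Wt, 10.3% in hdp1-1_ARE//AGE sMf and 2.59% in hdp2-1_ARE//AGe sMf. The hosts hdp1-1 Wt and hdp2-1 Wt varied more, at 36.3% and 62.6% for AGe and 33.1% and 62.4% for AGp. Replicate 1 of suvh1-2_ARE//AGE sMf, lowest in both regions, was also the library of this group with the fewest reads aligned once (9.24 units of 1000000, against 10.6 and 10.2 in replicates 2 and 3).

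Reads with several hits in the genome took a higher share in each suvh1-2_ARE//AGE sMf library than in any host library, a difference that 3 against 3 libraries cannot bring past the threshold. Of mapped reads 60.0%, 54.9% and 55.4% aligned more than once in the libraries with the cassette, against 51.0%, 50.4% and 50.5% in suvh1-2 Wt. Replicate 1 with the cassette, lowest in AGe and AGp, was the highest, and the part of this share in the region levels was not tested. The means were 56.8% ± 2.79 and 50.6% ± 0.30, a difference of 6.15 points. An exact two-sided permutation test gave p = 0.1, the smallest that 3 against 3 libraries allow, and an adjusted p of 0.15 over the 3 comparisons of this share. A higher mean share than in the own host was not particular to suvh1-2. It was 63.4% in hdp1-1_ARE//AGE sMf against 52.0% in hdp1-1 Wt, and 58.7% in hdp2-1_ARE//AGe sMf against 54.9% in hdp2-1 Wt. The means of the rMf groups of set C also lay above those of their hosts. Of all sequenced reads 39.6% ± 2.87 aligned once and 8.42% ± 1.75 did not align in suvh1-2_ARE//AGE sMf, against 46.3% ± 0.61 and 6.28% ± 0.87 in the host. In number, reads aligned once were 10.01 ± 0.71 with the cassette and 11.7 ± 0.17 in the host, in units of 1000000, while reads aligned more than once were 13.1 ± 0.63 and 12.0 ± 0.10. Even if every AGe and AGp read aligned once, they would make up 1.11% ± 0.14 of the reads aligned once with the cassette and 0.0713% ± 0.0027 in the host.

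**Figure D2:**
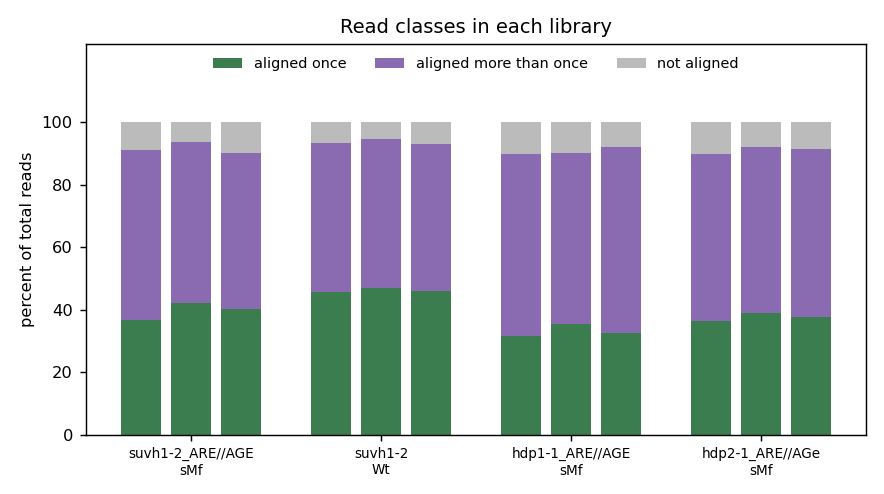
Percent of total reads that aligned once (green), more than once (purple) or not at all (grey), as stacked bars from 0 to 100, in replicates 1 to 3 of each group. Reads aligned once averaged 39.6% in suvh1-2_ARE//AGE sMf and 46.3% in suvh1-2 Wt.

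Both regions were also counted per 1000000 reads aligned once. AGe then stood at 5993, 7567 and 7301 in suvh1-2_ARE//AGE sMf, against 430.8, 419.7 and 435.7 in suvh1-2 Wt. AGp stood at 3549, 4486 and 4539 with the cassette, against 301.0, 262.6 and 289.6 in the host. On this scale the fitted ratios were 16.2 for AGe (log2 4.02 ± 0.42 SE, adjusted p = 1.23e-12 by edgeR) and 14.7 for AGp (log2 3.88 ± 0.42 SE, adjusted p = 2.79e-12 by edgeR). Among the pools with the cassette the coefficient of variation was then 12.1% for AGe and 13.3% for AGp.

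No test of the number of AGp reads for each AGe read passed the threshold between line and host. An exact test of 3 against 3 libraries cannot pass it. The number was 0.592, 0.593 and 0.622 in suvh1-2_ARE//AGE sMf, against 0.699, 0.626 and 0.665 in suvh1-2 Wt. The groups did not overlap, but replicate 3 with the cassette came within 0.00384 of replicate 2 of the host, whose own 95% exact (Clopper-Pearson) interval, for counting error only, ran from 0.598 to 0.654. The means were 0.602 ± 0.017 and 0.663 ± 0.037, a difference of -0.0607. The exact two-sided permutation p was 0.1, the smallest that 3 against 3 libraries allow, and 0.3 when adjusted over 3 comparisons. A fit of AGp counts over set C, with AGe reads as library size, gave a ratio of 0.908 (95% interval 0.655 to 1.26, adjusted p = 0.77, edgeR). Its interval rests on the spread shared by set C. The coefficient of variation of AGp per AGe read was 2.80% in suvh1-2_ARE//AGE sMf and 5.52% in suvh1-2 Wt. In kan1-11_Ctr//AGe rMf, also in that fit, it was 58.3%. This fit could not detect a shift of either sign within these limits, and no fit with fewer groups was made for this ratio. Corrected for length, AGp had 0.86 ± 0.024 of the density of AGe in suvh1-2_ARE//AGE sMf and 0.947 ± 0.052 in suvh1-2 Wt. The reads gained over the host, 2810 RPM in AGe and 1682 RPM in AGp as differences of means, stood to each other as 0.599 AGp read for each AGe read.

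**Figure D3:**
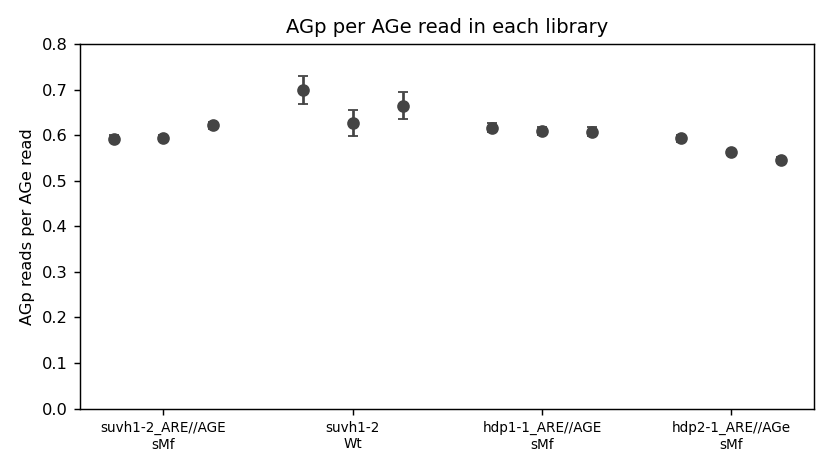
AGp reads per AGe read in replicates 1 to 3 of each group, with 95% exact intervals that cover counting error only. Values in suvh1-2_ARE//AGE sMf lie between 0.592 and 0.622, and those in suvh1-2 Wt between 0.626 and 0.699.

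Among the 3 sMf groups, with the spellings AGE and AGe taken as 1 cassette, suvh1-2 stood between the other hosts in mean AGe and AGp. In the order of all 12 groups of set C it was in place 2 for both regions, per mapped read and per read aligned once, with hdp2-1_ARE//AGe sMf in place 1.

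Against hdp1-1_ARE//AGE sMf neither region passed the test over the set, and none of the 6 tests among sMf groups did (0%). At an unadjusted p under 0.05 the count was also 0 in the edgeR fit over set C, and DESeq2 and limma called 0 of the 4 that involve suvh1-2. AGe stood at 2036, 2374 and 1954 RPM in hdp1-1_ARE//AGE sMf, so that the lowest suvh1-2_ARE//AGE sMf library, at 2399 RPM, lay just above the highest of hdp1-1. AGp was 1256, 1445 and 1187 RPM in hdp1-1_ARE//AGE sMf, and here the lowest suvh1-2 library, at 1421 RPM, lay below the highest of hdp1-1. The ratio of suvh1-2 to hdp1-1 was 1.42 for AGe (interval 0.845 to 2.40, adjusted p = 0.294 by edgeR) and 1.41 for AGp (interval 0.834 to 2.37, adjusted p = 0.294 by edgeR). The call depended on which groups shared the estimate of spread: with only the suvh1-2 and hdp1-1 sMf groups in the fit the unadjusted p was 0.0237 for AGe and 0.0277 for AGp and the adjusted p 0.0554 for both, and with only the 4 groups compared here, a choice made after seeing the data, 0.00401 for both (edgeR). With reads aligned once as the base, suvh1-2 over hdp1-1 came to 1.20 in AGe and 1.19 in AGp. Each had an adjusted p of 0.627 over the set, 0.0891 with only the suvh1-2 and hdp1-1 sMf groups and 0.0213 with only the 4 groups (edgeR). Of mapped reads 64.8%, 60.9% and 64.5% aligned more than once in hdp1-1_ARE//AGE sMf, above every suvh1-2_ARE//AGE sMf library, a difference of -6.61 points for suvh1-2 minus hdp1-1 (exact two-sided permutation p = 0.1, adjusted 0.15).

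Against hdp2-1_ARE//AGe sMf no difference passed the test over the set in either region. AGe stood at 3290, 3469 and 3417 RPM in hdp2-1_ARE//AGe sMf, a tight group within which or near which replicates 2 and 3 of suvh1-2_ARE//AGE sMf fell, at 3413 and 3254 RPM. AGp was 1951, 1949 and 1864 RPM in hdp2-1_ARE//AGe sMf, below replicates 2 and 3 of suvh1-2, both at 2023 RPM, and above replicate 1. The ratio of suvh1-2 to hdp2-1 was 0.891 for AGe (interval 0.529 to 1.501, adjusted p = 0.789 by edgeR) and 0.948 for AGp (interval 0.563 to 1.60, adjusted p = 0.839 by edgeR). Without replicate 1 of suvh1-2 the AGp ratio was 1.05. Per read aligned once, AGe was 8149, 8211 and 8254 in hdp2-1_ARE//AGe sMf, above every suvh1-2_ARE//AGE sMf library, with a ratio of 0.848. Its adjusted p was 0.627 over the set, 0.0891 with only the suvh1-2 and hdp2-1 sMf groups and 0.0213 with only the 4 groups (edgeR). AGp per read aligned once was 4832, 4614 and 4502 in hdp2-1_ARE//AGe sMf, a range that holds replicate 3 of suvh1-2, with a ratio of 0.902 (adjusted p = 0.689 over the set, edgeR). These intervals are wide, so the groups are not shown to be alike.

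**Figure D4:**
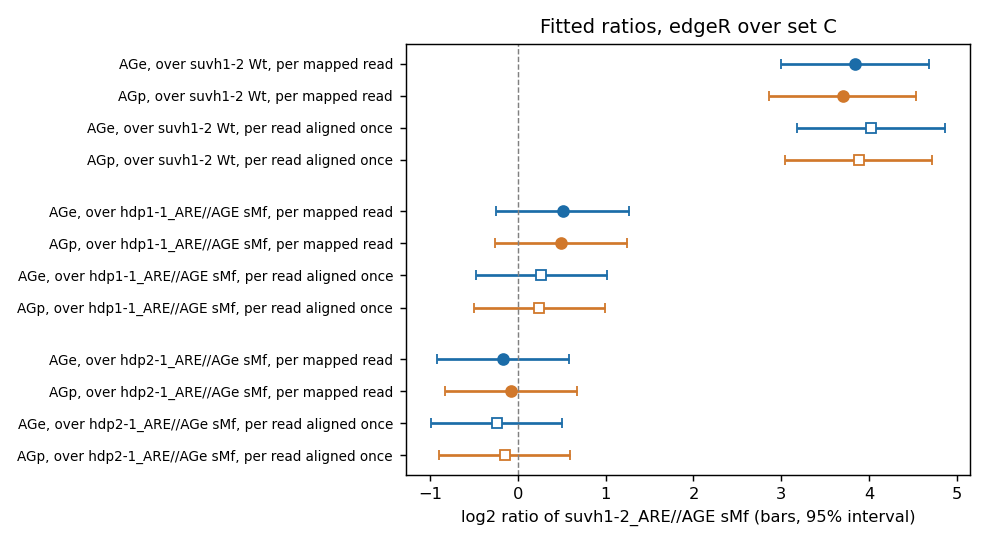
Fitted log2 ratios of suvh1-2_ARE//AGE sMf over suvh1-2 Wt and over the hdp1-1 and hdp2-1 sMf groups, with 95% intervals from the edgeR fit over set C. Filled circles are per mapped read and open squares per read aligned once, and the dashed line marks no difference. The 4 ratios over suvh1-2 Wt lie between 3.70 and 4.02, and all intervals of the other ratios include 0.

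The balance of promoter and enhancer reads did not pass a test between the sMf groups. AGp per AGe read was 0.617, 0.609 and 0.608 in hdp1-1_ARE//AGE sMf, a range inside that of suvh1-2_ARE//AGE sMf. It was 0.593, 0.562 and 0.545 in hdp2-1_ARE//AGe sMf, of which only replicate 1 reached the range of suvh1-2. That overlap was slight, the lowest pairwise difference of suvh1-2 minus hdp2-1 being -0.000626. The ratio of suvh1-2 to hdp1-1 was 0.986 (interval 0.712 to 1.37, adjusted p = 0.928 by edgeR with AGe reads as library size) and to hdp2-1 1.06 (interval 0.767 to 1.47, adjusted p = 0.928 by the same fit). Exact two-sided permutation tests of the means gave p = 0.4 and p = 0.3, both 0.4 after adjustment over the 3 comparisons. With 3 against 3 libraries such a test cannot go below 0.1, so it could not have passed. In the same set, Ctr//AGe flowers of Col and kan1-11, of class rMf, held at most 0.00422 AGp read for each AGe read. With another cassette, flower class and hosts, they give no baseline for differences among the sMf groups. Of mapped reads 59.6%, 57.7% and 58.6% aligned more than once in hdp2-1_ARE//AGe sMf, and the suvh1-2_ARE//AGE sMf libraries lay on both sides of them (difference -1.89 points, exact permutation p = 0.4).

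The hosts stood apart in level, every suvh1-2 Wt library lying above every hdp1-1 and hdp2-1 Wt library in both regions. In suvh1-2 Wt AGe stood at 211.7 ± 3.86 RPM, against 45.4 ± 16.5 RPM in hdp1-1 Wt and 50.3 ± 31.5 RPM in hdp2-1 Wt (SD, n = 3 each). AGp stood at 140.4 ± 9.08 RPM in suvh1-2 Wt, 29.0 ± 9.6 RPM in hdp1-1 Wt and 29.4 ± 18.4 RPM in hdp2-1 Wt. The rise over the own host was 14.3-fold for AGe in suvh1-2, against 46.7-fold in hdp1-1 and 67.4-fold in hdp2-1, as ratios of means. For AGp it was 13.0-fold in suvh1-2, 44.6-fold in hdp1-1 and 65.3-fold in hdp2-1. As differences of means the gain in AGe was 2810 RPM in suvh1-2, against 2076 RPM in hdp1-1 and 3342 RPM in hdp2-1.

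Among sMf flowers the fold rise in suvh1-2 was smaller than in hdp1-1 and hdp2-1 for both regions. Of the 6 such differences among the 3 sMf groups 66.7% passed, namely the 4 that involve suvh1-2. For AGe the log2 change in suvh1-2 minus that in hdp1-1 was -1.71 ± 0.53 SE (adjusted p = 0.00358 by edgeR), and minus that in hdp2-1 -2.24 ± 0.54 (adjusted p = 0.000371 by edgeR). For AGp the differences were -1.78 ± 0.53 and -2.33 ± 0.54 (adjusted p = 0.00331 and 0.000371 by edgeR, over 6 tests). The hdp2-1 host held 13.99 RPM of AGe in replicate 1 and 69.7 and 67.3 RPM in replicates 2 and 3. Without replicate 1 of hdp2-1 Wt the AGe difference was -1.80 and the AGp difference -1.90, and both passed the test. In rMf flowers, over the same hosts, the ratio was 16.9 for AGe and 14.7 for AGp in hdp1-1_ARE//AGE, and 42.9 and 30.5 in hdp2-1_ARE//AGe. The hdp1-1 rMf ratios lie near those of suvh1-2 sMf, at 14.3 and 13.0, and the difference between them was not tested.

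**Figure D5:**
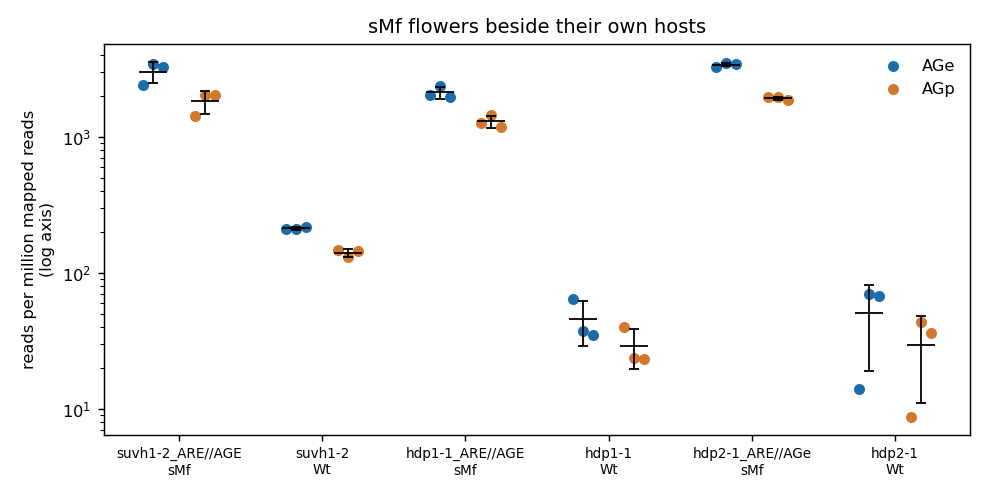
AGe (blue) and AGp (orange) reads per 1000000 mapped reads, on a log axis, in sMf flowers of each mutant and, to the right of them, in its own Wt host. Points are libraries, the horizontal mark is the mean and the bar 1 SD. AGe averages 211.7 in suvh1-2 Wt, against 45.4 in hdp1-1 Wt and 50.3 in hdp2-1 Wt.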

How the data were processed

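Set C libraries were built with a TruSeq small RNA kit, per the labels' protocols. The submitters' processing notes name Bowtie, HTSeq 0.13.5 and the build TAIR10. How reads were trimmed, chosen by size and counted when they hit several places is not given in the sources used here. The authors deposited read counts (total, aligned once, aligned more than once, mapped, AGe and AGp), an alignment rate in percent, which was not used, and RPM. The deposited RPM equalled AGe or AGp counts per 1000000 mapped reads in 96 of 96 libraries (relative tolerance 1e-09).

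Region counts were fitted in edgeR 4.0.16 under R 4.3.3 (quasi-likelihood test, two-sided, common dispersion, a mean per group over all 36 set C libraries), with mapped reads or reads aligned once as library size. Adjusted p are Benjamini-Hochberg values over 14 tests (lines against hosts), 6 (among sMf groups) or 6 (differences of changes), with a threshold of 0.05. Single ratios and shares had exact permutation tests. Alternatives were total reads, a filter at 10 reads, DESeq2 1.42.0, limma 3.58.1 on log2(reads per 1000000 + 1), fewer groups, a replicate block and leaving out libraries. The fit was tested on simulated data for suvh1-2 against hdp1-1 sMf at known folds and for an unchanged host ratio. Differences of changes and large rises over the host were not simulated. All groups were simulated with a common dispersion and the 2 regions independently. The simulation therefore does not test the fit under unlike spreads of groups or linked regions. Both regions are named throughout, as the rule for named features. Group, comparisons and lists were chosen with earlier results of these data known.

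Replicates share numbers across groups, but no label says what a number marks. Deviations of same-numbered suvh1-2_ARE//AGE sMf and suvh1-2 Wt libraries over 5 read classes correlated at 0.144, 0.735 and 0.897, above the bound of 0.1 set for pairing. The tests reported are nonetheless unpaired, and the fit with a replicate block is an alternative; with the hdp1-1 and hdp2-1 sMf groups replicate 3 correlated negatively. Per the labels each replicate is a pool of lines, with no statement that pools share none. Replicates of a group differed beyond counting noise in their read classes (smallest chi-square 2804), which at this depth is no proof of separate pools; suvh1-2 Wt replicates 1 and 3, that smallest pair, did not in AGe and AGp (chi-square 2.56), and all were kept as separate libraries. P-values of the edgeR fits of region counts rest on the spread between pools shared by set C, estimated over both regions together. AGe and AGp of a library enter that estimate as separate values. Replicate 1 of suvh1-2_ARE//AGE sMf was lowest in both, so the regions are not independent, and these p-values may be too small and intervals too narrow.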

Additional observations from a re-analysis of the deposited data

Results flagged for a closer look

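Differences of the rise over the own host between mutants, in sMf flowers, passed the edgeR test in all 8 cases that involve suvh1-2. These are 2 regions by 2 other mutants by 2 library sizes, taken from the same libraries. With each library size 66.7% of all 6 such differences passed, and those between hdp1-1 and hdp2-1 did not. Values are log2 change in suvh1-2 minus log2 change in the other mutant. Per mapped read they were -1.71 for AGe and -1.78 for AGp against hdp1-1, and -2.24 and -2.33 against hdp2-1. Per read aligned once they were -1.90 for AGe and -1.97 for AGp against hdp1-1, and -2.17 and -2.26 against hdp2-1. In each mutant all 3 sMf libraries held more reads than all 3 host libraries in both regions, so the difference is one of size and not of direction. The mean host level was 211.7 RPM of AGe in suvh1-2 Wt, against 45.4 in hdp1-1 Wt and 50.3 in hdp2-1 Wt. As a difference of means the AGe gain in suvh1-2, 2810 RPM, was above the 2076 RPM of hdp1-1 and below the 3342 RPM of hdp2-1.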

How the results depend on the processing

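The AGe and AGp rises over suvh1-2 Wt and the 8 differences of changes kept their direction and passed the test under total reads as library size, the filter at 10 reads (which removed neither region), DESeq2, limma on log2(reads per 1000000 + 1), fewer groups in the fit, the replicate block and with each library of the compared groups left out in turn. With the replicate block the AGe and AGp rises were 14.3-fold and 12.9-fold, and the block changed no call; AGp per AGe read against the host had an exact p of 0.25 in pairs, the smallest possible. With libraries left out, the AGe ratio to the host ran from 13.3 to 15.7 and the AGp ratio from 12.3 to 14.4. The ratios among sMf groups did not pass over set C under any of these settings, except with only the 4 compared groups in the edgeR fit, chosen after seeing the data. There suvh1-2 against hdp1-1 passed at log2 0.51 for AGe and 0.49 for AGp per mapped read, and 0.27 and 0.25 per read aligned once, and AGe per read aligned once passed against hdp2-1 at -0.24. For AGe per mapped read against hdp1-1 the log2 ratio was 0.51 in both fits, with an SE of 0.375 over set C and 0.133 with the 4 groups. What lies behind the unlike spread of the groups was not tested. The 1 change of sign was AGp against hdp2-1, which ran from -0.16 to 0.074 on the log2 scale with libraries left out, the highest being without replicate 1 of suvh1-2_ARE//AGE sMf. AGp per AGe read against the host stayed lower with libraries left out, from -0.0794 to -0.0428. Exact tests of 3 against 3 cannot go below 0.1, and of 3 pairs not below 0.25, so they say nothing about stability.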
